A study of Homo sapiens with 6 samples.

Results

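The ligands and receptors of axon guidance were examined as a group in BE(2)-C_tetoff_KDM4C cells, a derivative of the human neuroblastoma line BE(2)-C. The group was set by gene symbol: plexins, semaphorins, neuropilins, ephrins and their EPH receptors, SLITs and ROBOs, netrins and netrin G proteins, and the netrin receptors DCC, NEO1 and UNC5A to UNC5D. The array annotation named 47 such genes, each by 1 probe set, among 14884 named genes and 53617 probe sets in all. They comprised 17 ligands and 30 receptors. It named 0 semaphorins and 0 ROBO receptors, which are not analysed here.

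The cells carry a tet-off construct for KDM4C, a histone demethylase that acts on methylated lysine residues of histone H3. Doxycycline keeps a tet-off construct silent, and its absence lets the construct be expressed. Total RNA was taken after 6 days in medium with dialyzed serum, from 3 samples grown with doxycycline (construct off) and 3 grown without it (construct on), and each was measured on 1 Affymetrix array. The design text calls the samples of a group independent but names no separate passages, so the p-values measure the spread between these samples, which may be technical. No cells lacking the construct were analysed here, so KDM4C induction and doxycycline withdrawal cannot be told apart. The promoter that drives the transactivator, and whether the line is 1 clone, are not stated here.

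Axon guidance proteins steer growing neurites by attraction or repulsion. Plexins, often with a neuropilin as coreceptor, receive semaphorins; ROBO receptors receive SLITs; DCC, neogenin and the UNC5 proteins receive netrins. Membrane-bound ephrins signal to EPH receptor tyrosine kinases on a neighbouring cell and can also signal back into their own cell. Sympathetic neurons, the lineage from which neuroblastoma arises, and the neural crest cells that precede them are known to be guided by several of these families.

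Values are the log2 expression values deposited by the authors, and a difference is no doxycycline minus doxycycline, so that positive means higher without doxycycline. KDM4C was at 8.97, 9.08 and 9.02 without doxycycline and at 7.71, 7.77 and 7.80 with it, a log2 difference of 1.27 (SE 0.07, limma adjusted p = 0.00788), the direction that a tet-off construct gives. The 6 arrays correlated at 0.991 to 0.993 within groups and 0.990 to 0.991 between them. All 12 measured of 15 noradrenergic neuroblastoma markers had group means above the median probe set, at 7.04 to 12.3. None of the 12 passed limma's test over all probe sets. Before adjustment 6 of the 12 had a limma p under 0.05, where 14.4% of all named genes did. Of these 6, 3 had positive differences, ALK (0.54) and TH (0.34) among them, and 3 negative ones, CHGA (-0.40) and CHGB (-0.34) among them. Their part in the results that follow was not tested. Of 37 markers of mesenchymal, Schwann, immune, endothelial and epithelial cells, 22 were measured, 15 of them lay below the median probe set and 0 passed limma's test (1, ERG, at an unadjusted p below 0.05). In bulk RNA, fewer cells that express a gene and less of its RNA per cell cannot be told apart.

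PLXNA2, a class A plexin that receives class 3 and class 6 semaphorins, was the 1 of the 47 genes that passed the test over all probe sets, and it rose 2.05-fold without doxycycline. Its call was lost with any 1 array fewer, at log2 differences of 1.00 to 1.08. Of the other class A plexins, PLXNA1 and PLXNA4 had positive differences and PLXNA3 a negative one, none past the threshold. The EPHA receptors had 7 negative differences among 9, led by EPHA6, where 7526 of all 14884 named genes had negative ones. Of the 3 EPHA receptors above the median probe set, 2 had negative differences and 1 a positive one. SLIT3, UNC5B and UNC5C had positive differences and NTNG1 a negative one, all with groups that did not overlap, and none of these 4 passed the test.

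The background of the comparison sets the scale of these counts. At a limma adjusted p below 0.05, 0.564% of the 14884 named genes were called (0.341% of all probe sets), against 1 of the 47 members. At an adjusted p below 0.10 it was 1.46% of named genes and 3 members, PLXNA2, PLXNA1 and EPHA6. At an unadjusted p below 0.05, 7 members were higher and 4 lower, 23.4% of the 47, where all named genes gave 14.4%. Groups did not overlap for 11 members that were higher and 8 that were lower, 40.4% in all, against 24.6% of all named genes. The share moved with signal: it was 16 of the 31 members above the median probe set (32.2% of named genes there) and 3 of the 16 below it (12.5% there). The median difference of the members was 0.03, and that of all named genes was -0.002. The ligands had a median of 0.03 and the receptors of 0.005.

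**Figure D1:**
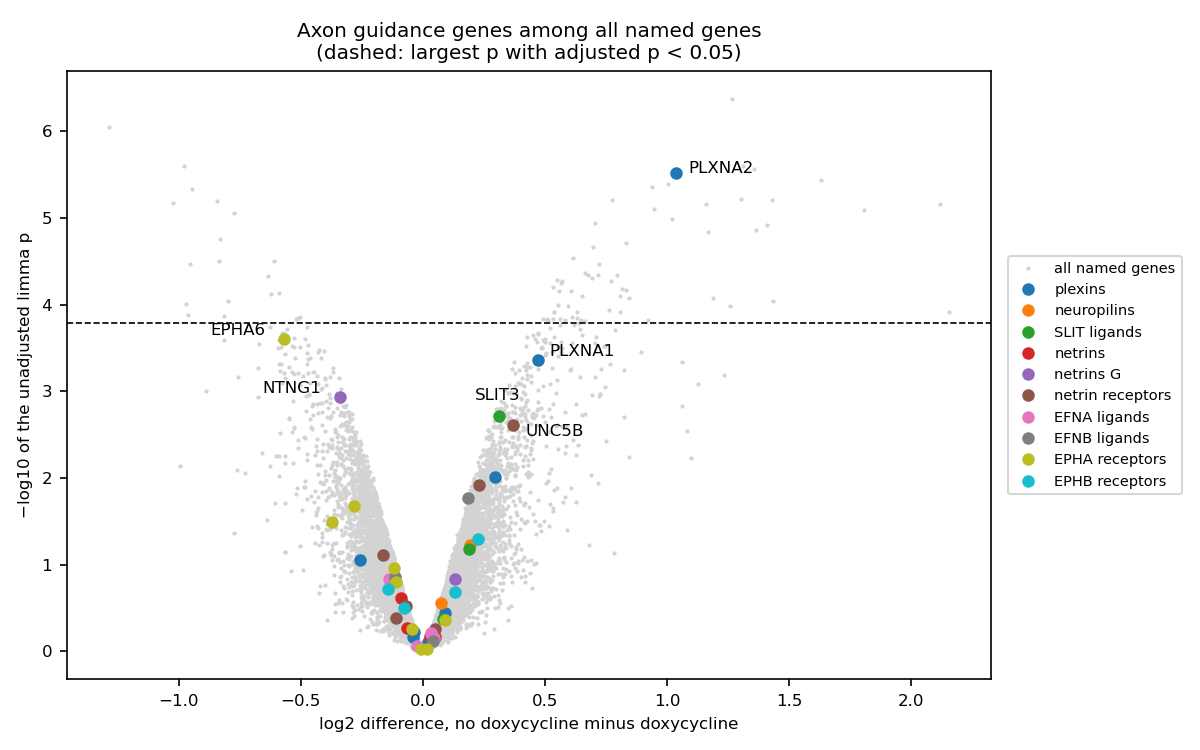
Each point is a gene: the x axis is the log2 difference (no doxycycline minus doxycycline) and the y axis is −log10 of the unadjusted limma p. Grey points are all 14884 named genes and coloured points the 47 axon guidance genes by family; PLXNA2, at 1.04, is the coloured point above the dashed line, which marks the largest p among named genes with an adjusted p below 0.05.

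**Figure D2:**
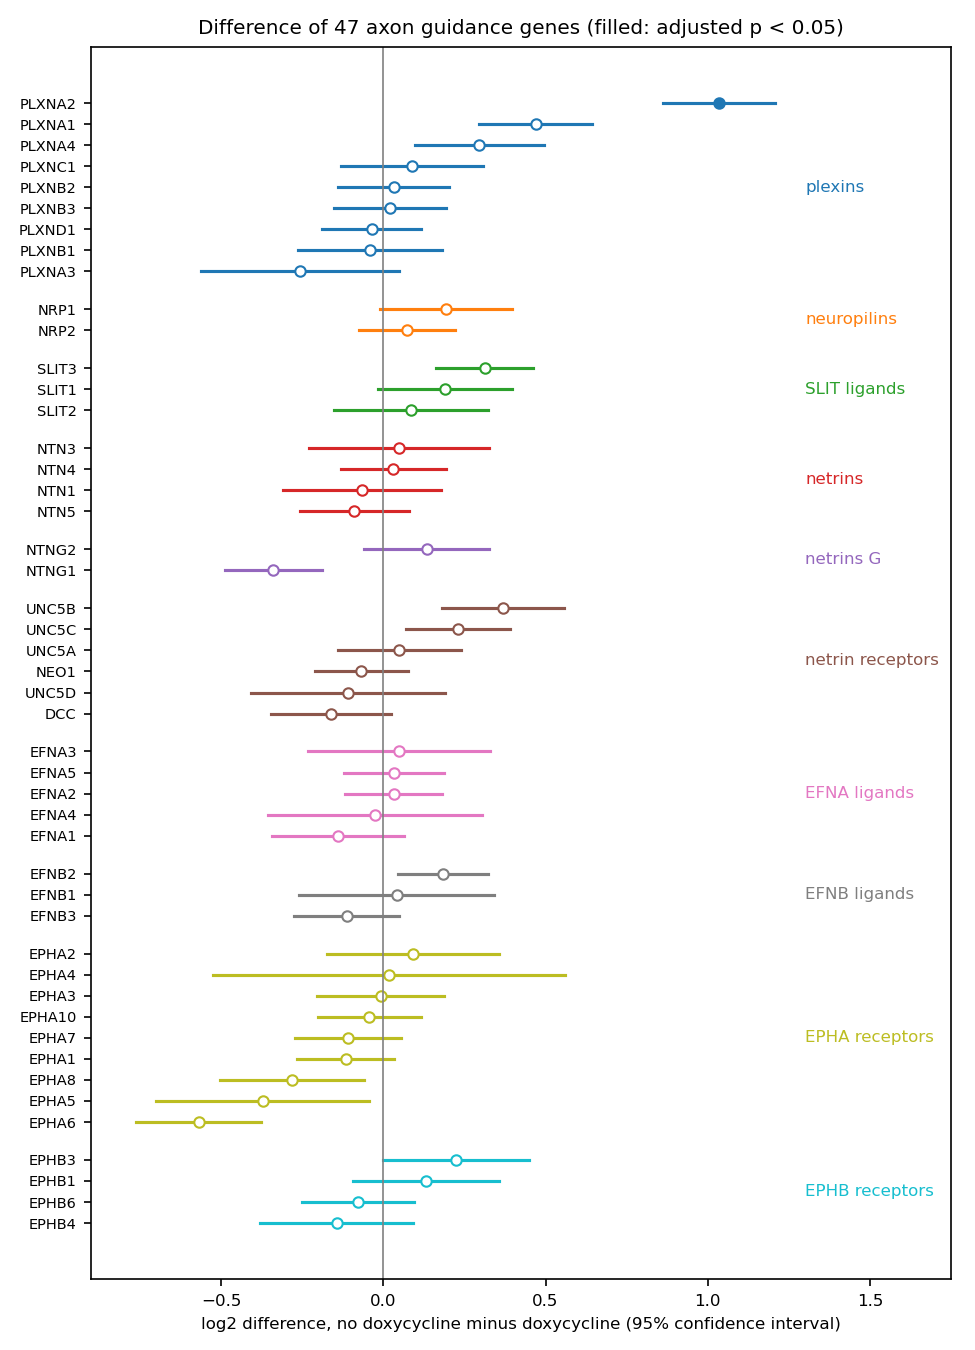
The x axis is the log2 difference (no doxycycline minus doxycycline) with its 95% confidence interval for each of the 47 genes on the y axis, ordered within families. PLXNA2 is the filled point (adjusted p below 0.05), and EPHA6, at -0.57, lies lowest.

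The upstream sequences of the genes with the largest differences are shown because KDM4C acts on chromatin, although no array measured its binding or histone methylation. RefSeq windows of 250 bases ending just before an annotated start (GRCh38.p14) were found for 39 of the 47 genes, 49 windows in all. The windows of PLXNA2 (chr1:208244385-208244634, minus strand), PLXNA1 (chr3:126982865-126983114, plus strand) and the more upstream of the 2 EPHA6 starts (chr3:96814344-96814593, plus strand) read as follows, 5′ to 3′, with the GC box GGGCGG, a binding motif of SP1, in capitals on either strand.
PLXNA2: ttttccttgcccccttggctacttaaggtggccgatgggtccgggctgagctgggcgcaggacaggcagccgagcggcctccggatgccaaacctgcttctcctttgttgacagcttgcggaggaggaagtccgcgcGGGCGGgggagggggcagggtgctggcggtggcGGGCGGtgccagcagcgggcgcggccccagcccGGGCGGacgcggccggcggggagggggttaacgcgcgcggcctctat
PLXNA1: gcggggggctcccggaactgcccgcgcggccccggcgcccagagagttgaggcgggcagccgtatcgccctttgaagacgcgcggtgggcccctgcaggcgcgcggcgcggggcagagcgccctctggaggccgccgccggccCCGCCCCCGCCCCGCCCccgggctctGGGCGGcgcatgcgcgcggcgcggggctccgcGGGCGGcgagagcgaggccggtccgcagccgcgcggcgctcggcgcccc
EPHA6: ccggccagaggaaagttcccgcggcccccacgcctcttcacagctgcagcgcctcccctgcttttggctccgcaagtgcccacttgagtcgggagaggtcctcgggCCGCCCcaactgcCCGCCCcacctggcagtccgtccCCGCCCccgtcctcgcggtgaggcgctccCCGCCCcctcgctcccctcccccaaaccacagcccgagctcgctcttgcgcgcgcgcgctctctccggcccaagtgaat
The PLXNA2 window was 72.4% G and C with 27 CpG dinucleotides and held 3 GC boxes, and the EPHA6 window was 72.4% with 26 CpG and 4 GC boxes. PLXNA1 had 84.4%, 46 CpG and 5. The PLXNA2 window and the more upstream EPHA6 window were alike in base composition. The second EPHA6 window was not, at 37.2% G and C, with 1 CpG and 0 GC boxes. Which EPHA6 start the cells used was not measured, and a link between base composition and direction was not tested. Across the members' windows the median G and C content was 67.6% and 81.6% held a GC box, against 58.0% and 42.6% of all 35116 windows of that length. Those 35116 windows cover 27305 genes and are not limited to genes named on the array. A gene with several starts counts more than once in both sets. The AP-1 motif TGANTCA, searched on both strands and not overlapping the GC box, occurred in 1 member window, of PLXNC1 (2.04%, all windows 6.57%). The core TGATGNAA of the motif bound by ATF4 with C/EBP proteins occurred in 0 (all windows 3.14%). These matches describe letters in these windows and were not tested for binding.

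Among the plexins, PLXNA2 was at 7.72, 7.60 and 7.77 without doxycycline and at 6.66, 6.61 and 6.71 with it. The 3 untreated values lay about a full log2 unit above the treated ones, and the groups did not overlap. The log2 difference was 1.04 (SE 0.07, 95% confidence interval 0.86 to 1.21, limma adjusted p = 0.0130), the 6th smallest p and the 23rd largest increase among the named genes. Any 1 array fewer kept the difference at 1.00 to 1.08 and raised the adjusted p to between 0.0505 and 0.0906, so that the call was lost without each of untreated replicates 1, 2 and 3 and doxycycline-treated replicates 1, 2 and 3.

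PLXNA1, another class A plexin that signals with neuropilins, was at 8.62, 8.56 and 8.70 without doxycycline and 8.07, 8.21 and 8.19 with it. Its groups were apart too, by a log2 difference of 0.47 (SE 0.07, limma adjusted p = 0.0708). PLXNA4, which acts with neuropilins in sympathetic and sensory axons, was at 4.29, 4.18 and 4.32 against 3.94, 3.87 and 4.09. That is a difference of 0.30 (SE 0.08, limma adjusted p = 0.234) on a probe set close to the median of all probe sets. PLXNA3 went the other way, at 6.33, 6.18 and 6.33 without doxycycline and 6.39, 6.81 and 6.40 with it. Treated replicate 2 stood above the rest. The difference was -0.26 (95% confidence interval -0.56 to 0.05), and -0.12 without that replicate.

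On the log2 scale, the difference of PLXNA2 exceeded that of PLXNA1 by 0.57, that of PLXNA4 by 0.74 and that of PLXNA3 by 1.29. These gaps are given as a description, without a test, since PLXNA2 was set against its relatives after its values were seen.

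The plexins of the other classes showed small differences. PLXNB1 and PLXNB2, receptors of class 4 semaphorins, were at -0.04 and 0.03, and PLXNB3 was at 0.02. PLXND1, the receptor of SEMA3E, was at -0.04 and PLXNC1, the receptor of SEMA7A, at 0.09. The 95% confidence intervals of these 5 lay between -0.26 and 0.31, which leaves out an increase of the size of PLXNA2. Over the 9 plexins the median difference was 0.03, with 1 called higher and 0 lower, where 0.564% of all named genes were called.

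The neuropilins, coreceptors for class 3 semaphorins and for VEGF, were both measured. NRP1 was at 8.41, 8.40 and 8.38 without doxycycline and 8.31, 8.25 and 8.04 with it. NRP2 was at 6.22, 6.23 and 6.24 against 6.22, 6.12 and 6.14. The untreated values of each lay above the treated ones, in NRP2 narrowly (6.223 against 6.218 at the nearest), with differences of 0.19 (SE 0.09, limma adjusted p = 0.426) and 0.07 (SE 0.06, limma adjusted p = 0.690). Treated replicate 3 was the lowest for NRP1, and without it the difference was 0.11.

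**Figure D3:**
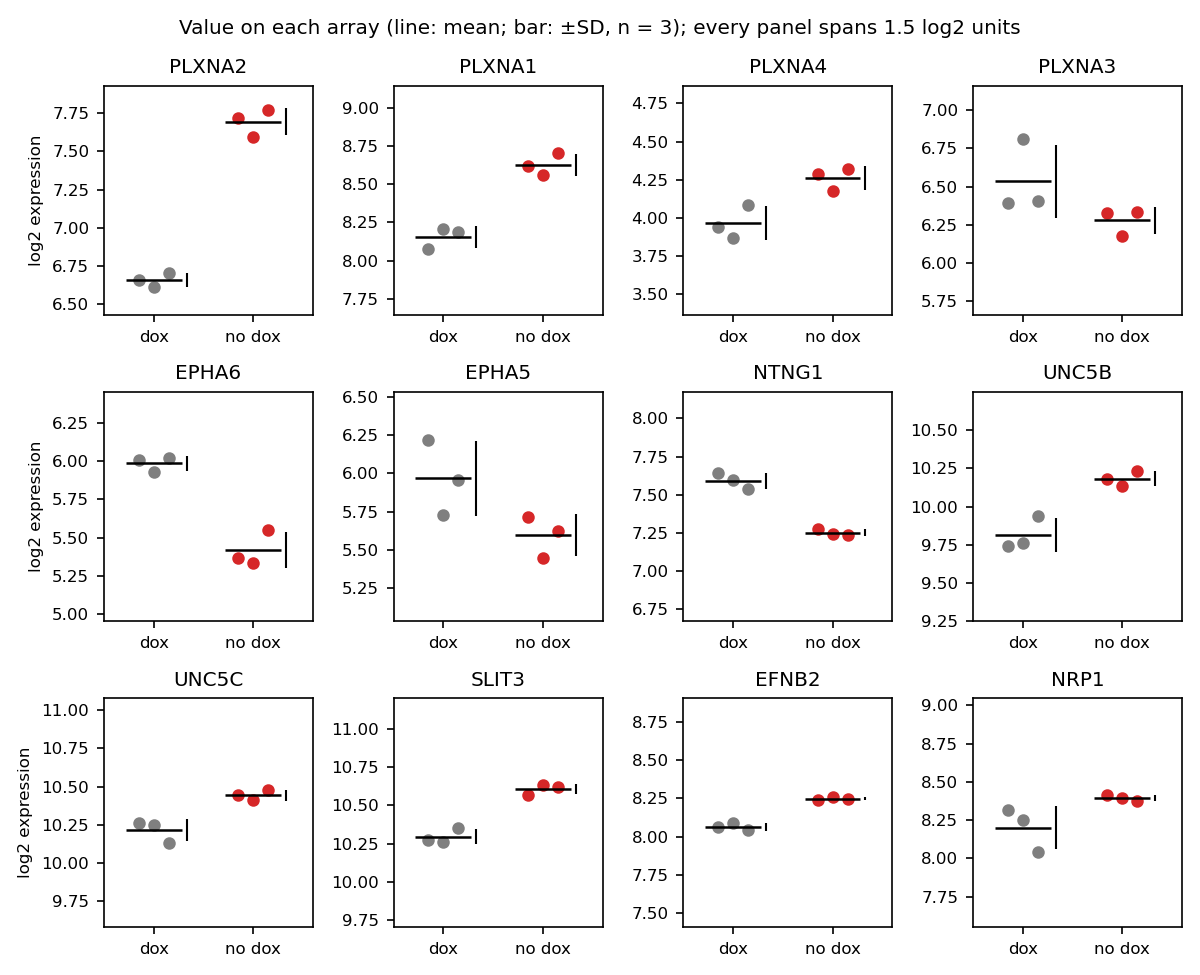
Each panel gives the log2 expression of 1 gene (y axis) on the 3 arrays with doxycycline (grey) and the 3 without (red), with the mean as a line and the SD as a bar; every panel spans the same range. PLXNA2 shows the widest gap, from at most 6.71 to at least 7.60. The 12 genes shown were all taken from the 19 members whose groups do not overlap. These 19 are 40.4% of the 47 members, against 24.6% of all named genes.

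The SLITs are secreted ligands that repel axons through ROBO receptors. All 3 had positive differences, and none passed the test. SLIT3 was at 10.57, 10.63 and 10.62 without doxycycline and 10.28, 10.26 and 10.35 with it. The groups were well apart relative to their spread, with a difference of 0.31 (SE 0.06, 95% confidence interval 0.16 to 0.46, limma adjusted p = 0.129). With trend and robust moderation of the variances SLIT3 passed (limma adjusted p = 0.0390), and with any 1 array fewer the limma adjusted p was 0.216 to 0.314. SLIT1 was at 0.19 (SE 0.09) and SLIT2 at 0.08 (SE 0.10), both with overlapping groups.

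Among the netrins, the secreted cues NTN1, NTN3, NTN4 and NTN5 had differences between -0.09 and 0.05, with overlapping groups. Of these 4, 0 had an unadjusted limma p below 0.05 (14.4% of all named genes). All but NTN3 lay below the median probe set, where a change could easily be missed. The netrin G proteins are anchored in the membrane by lipid and bind the NGL proteins at synapses, not DCC or UNC5 receptors. NTNG1 was at 7.28, 7.24 and 7.24 without doxycycline and 7.64, 7.60 and 7.54 with it. All 3 untreated values were lower, by a log2 difference of -0.34 (SE 0.06, 95% confidence interval -0.49 to -0.19, limma adjusted p = 0.107). LRRC4C, which encodes the partner of NTNG1, lay below the median probe set, at 3.41 without and 3.39 with doxycycline. A change there could be missed. NTNG2 lay in the range of dim probe sets at 3.31 against 3.18, a difference of 0.13 (SE 0.08, limma adjusted p = 0.566).

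Of the netrin receptors, UNC5B and UNC5C, which mediate repulsion from netrin and are also known as dependence receptors, had positive differences. UNC5B was at 10.18, 10.14 and 10.23 without doxycycline and 9.74, 9.76 and 9.94 with it. UNC5C was at 10.44, 10.41 and 10.48 against 10.26, 10.25 and 10.13. Neither pair of groups overlapped, and the differences were 0.37 (SE 0.08, limma adjusted p = 0.146) and 0.23 (SE 0.07, limma adjusted p = 0.252). UNC5A, on a bright probe set as well, was at 7.98 without and 7.93 with doxycycline, a difference of 0.05 (95% confidence interval -0.14 to 0.24).

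DCC, the attractive netrin receptor, lay near the bottom of the array's range at 2.95 ± 0.08 without and 3.11 ± 0.09 with doxycycline (SD, n = 3 each). Its value of -0.16 (SE 0.08) therefore says little about the transcript. UNC5D was at -0.11 (SE 0.12) and also below the median probe set. NEO1, which encodes the DCC relative neogenin, was at 4.88, 4.85 and 4.84 without doxycycline and 4.90, 4.91 and 4.96 with it. Its groups did not overlap, yet the difference of -0.07 (SE 0.06, limma adjusted p = 0.707) was of the size of its error.

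The 8 ephrin ligands had differences between -0.14 and 0.18, and none passed the test. EFNA1 to EFNA5, which are anchored by lipid and bind EPHA receptors, lay between -0.14 and 0.05, with overlapping groups in all 5. EFNA5 was at 8.80 without and 8.76 with doxycycline, a difference of 0.03 (95% confidence interval -0.12 to 0.19). Among the transmembrane ephrins, EFNB2, the ligand of EPHB4 and other EPHB receptors, was at 8.24, 8.26 and 8.25 without doxycycline and 8.06, 8.09 and 8.04 with it. The groups did not overlap, and the difference was 0.18 (SE 0.06, limma adjusted p = 0.278). EFNB3 was at 5.45, 5.52 and 5.60 against 5.64, 5.65 and 5.62, also without overlap, at -0.11 (SE 0.07, limma adjusted p = 0.556). EFNB1 was at 0.04 (SE 0.13).

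The EPHA receptors bind mainly the A ephrins. Of 9 measured, 7 had negative differences (7526 of all 14884 named genes did). Lower untreated values without overlap were found for 4 (12.5% of all named genes) and higher ones without overlap for 0 (12.1%). At an unadjusted p below 0.05, 3 were lower and 0 higher (6.87% and 7.57% of named genes), and 0 passed the adjusted threshold. The median was -0.11. Only 3 of the EPHA receptors lay above the median probe set, 2 with negative differences and 1 with a positive one. Below it, 11 of the 16 members of all families had negative differences (2863 of the 5775 named genes there).

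EPHA6 was at 5.37, 5.33 and 5.55 without doxycycline and 6.01, 5.93 and 6.02 with it. Every untreated value was lower than every treated one, and the log2 difference of -0.57 (SE 0.08, 95% confidence interval -0.76 to -0.38, limma adjusted p = 0.0565) missed the threshold narrowly. With dim probe sets left out, EPHA6 passed (limma adjusted p = 0.0421). With trend and robust moderation it did not (0.0645), and with any 1 array fewer the limma adjusted p was 0.121 to 0.190. EPHA5 was at 5.72, 5.45 and 5.62 against 6.22, 5.73 and 5.96. The groups nearly touched, at 5.72 and 5.73, and the difference was -0.37 (SE 0.14, limma adjusted p = 0.348).

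EPHA8 was at 3.74, 3.68 and 3.70 without doxycycline and 3.83, 4.15 and 3.99 with it, a difference of -0.28 (SE 0.09, limma adjusted p = 0.298) below the median probe set. EPHA1, also dim, was at 3.14 and 3.26 with a difference of -0.12 (SE 0.06). EPHA3, EPHA4, EPHA7 and EPHA10 were dim as well, at -0.01, 0.02, -0.11 and -0.04, all with overlapping groups. EPHA2, the receptor best known from epithelial and tumour cells, was at 4.59 ± 0.17 without and 4.50 ± 0.12 with doxycycline (SD, n = 3 each), a difference of 0.09 (SE 0.11) whose sign turned, at -0.0077, without untreated replicate 1.

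The 4 EPHB receptors measured had differences in both directions. EPHB3 was at 6.48, 6.42 and 6.48 without doxycycline and 6.08, 6.22 and 6.41 with it. The 3 treated values lay below the untreated ones, the nearest by little, and the difference was 0.22 (SE 0.09, limma adjusted p = 0.404). EPHB4, the receptor of EFNB2, was at -0.14 (SE 0.10), or -0.050 without untreated replicate 3, and the dim EPHB1 and EPHB6 at 0.13 and -0.08, all with overlapping groups.

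**Figure D4:**
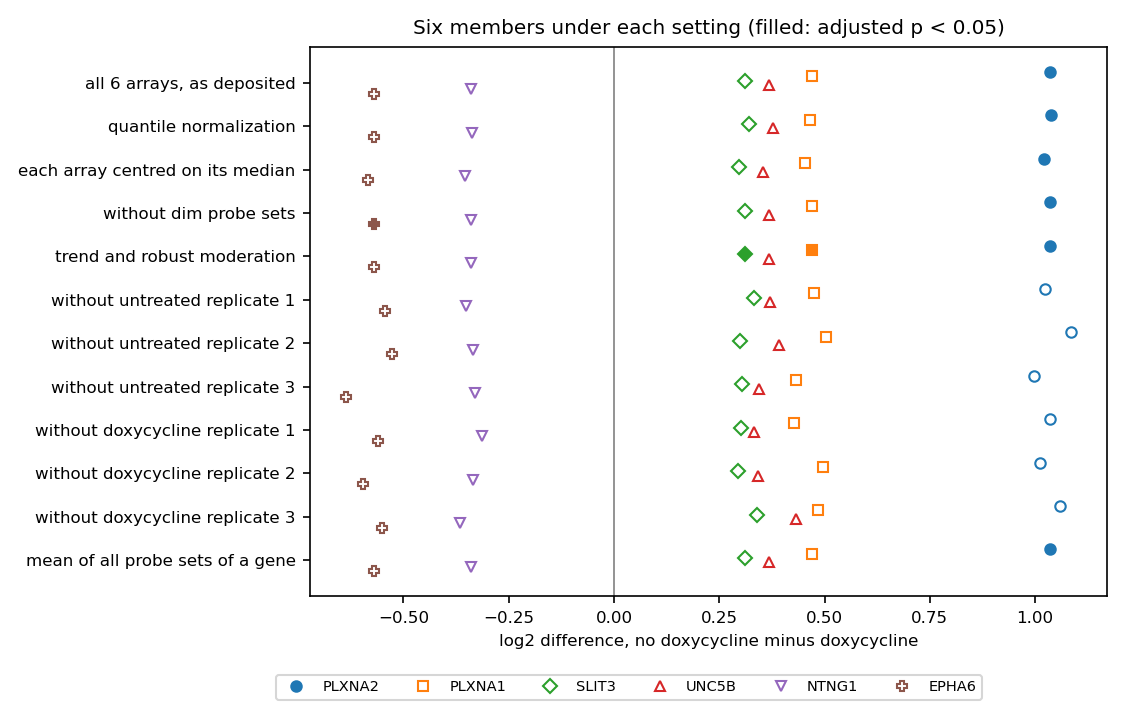
The x axis is the log2 difference of 6 genes (marker shapes) under the processing settings named on the y axis. Filled markers stand for a limma adjusted p below 0.05. The replicate block is not drawn, and PLXNA2 was not called there either (limma adjusted p = 0.119). Each gene keeps its sign and nearly its size in every setting shown, PLXNA2 between 1.00 and 1.08, while PLXNA2 loses the call with any 1 array fewer.

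Other axon guidance genes were read from the same fit, 66 measured of 92, among them coreceptors, other cues, collapsin response mediators, kinases and proteases. Of these 66, 1 was called higher and 0 lower, where 0.564% of all named genes were called, and the median difference was 0.02. An unadjusted limma p below 0.05 was found for 18.2% of the 66 (14.4% of all named genes). Groups did not overlap for 36.4% (24.6% of all named genes). The called gene was DPYSL3, a collapsin response mediator that binds the cytoskeleton downstream of semaphorin receptors. It was at 9.33, 9.27 and 9.26 without doxycycline and 8.79, 8.69 and 8.60 with it. The groups did not overlap, with a difference of 0.59 (SE 0.07, 1.51-fold, limma adjusted p = 0.0414), and with any 1 array fewer the adjusted p was 0.122 to 0.162 at a difference of 0.55 to 0.64.

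Of its relatives, DPYSL2, the first semaphorin mediator described, was at 0.28 (SE 0.07, limma adjusted p = 0.189) and DPYSL4 at -0.25 (SE 0.08, limma adjusted p = 0.307), each without overlap between groups. CRMP1 and DPYSL5 were at -0.14 and -0.03. SRGAP2, a GTPase-activating protein of the SLIT and ROBO pathway, was at 0.47 (SE 0.08, limma adjusted p = 0.0771), while its relatives SRGAP1 and SRGAP3 were at -0.15 and 0.03. CNTN1, an adhesion protein of axons, was at -0.32 (SE 0.09, limma adjusted p = 0.219). HGF, listed among the other cues, was at 0.48 (SE 0.09, limma adjusted p = 0.121), without overlap between groups. VEGFA, a ligand of neuropilins besides the semaphorins, was at 8.02 without and 7.13 with doxycycline, a difference of 0.89 (SE 0.13, limma adjusted p = 0.0634). The 14 kinases and cytoskeletal effectors lay between -0.12 and 0.14, with 0 at an unadjusted p below 0.05 (14.4% of all named genes).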

How the data were processed

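The 6 arrays hold total RNA of BE(2)-C_tetoff_KDM4C cells, 3 per group. The table deposited by the authors holds log2 expression values of probe sets, made in Partek per the submitters' processing notes. How background was corrected, arrays normalized and probes summarized is not given in the sources used here. Values of 2.12 to 14.3 fit a log2 scale, and array medians of 3.94 to 3.96 show a common scale. No detection calls were used, so probe sets below the median mean (3.94) are called dim. The number of arrays limits the precision.

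Gene names came from GEO's platform annotation, and all 47 Entrez identifiers matched RefSeq (GRCh38.p14). All probe sets were fitted with limma 3.58.1 in R 4.3.3 (lmFit, eBayes, no covariate, no filter), with Benjamini-Hochberg adjustment over all of them and a threshold of 0.05. The procedure was tested on simulated data. Members, lists and alternatives were chosen with earlier results of these data known. Named in full are members past the threshold, members whose groups did not overlap, and in each family the smallest p in each direction. Alternatives were quantile normalization, median centring, no dim probe sets, trend and robust moderation, a replicate block, leaving out each array, probe sets averaged per gene, and looser thresholds.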

Additional observations from a re-analysis of the deposited data

How the results depend on the processing

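The 10 family medians, the 26 named members and the counts were recomputed under the alternatives. For the named members, 293 of 306 values kept their direction and side of the threshold. Only PLXNA2 was called to begin with, so for the others keeping their side meant staying uncalled. PLXNA2 itself lost the call in 7 of 12 settings. Averaging probe sets per gene could not move a member's difference, since each member had 1 probe set. PLXNA2 passed with quantile normalization, median centring, no dim probe sets, trend and robust moderation and averaged probe sets, and DPYSL3 did too. EPHA6 passed also without dim probe sets, and PLXNA1 (limma adjusted p = 0.0329) and SLIT3 also with trend and robust moderation. Counts moved most. The 183 probe sets called in all became 311 without dim probe sets, 385 with trend and robust moderation and 0 to 15 with 1 array fewer; the members called became 2, 3 and 0, and the other guidance genes called became 3 with trend and robust moderation and 0 with 1 array fewer. With 1 array fewer 9 to 12 of the 47 members had an unadjusted limma p below 0.05, in a fit with fewer residual degrees of freedom. In the same fits 5542 to 6191 of all 53617 probe sets did. At an adjusted p below 0.10, 3 members passed (1.46% of all named genes), and 11 passed at an unadjusted p below 0.05 (14.4%).

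Deviations of same-numbered samples from their group means correlated at -0.01, -0.01 and 0.04. Not every sample correlated best with its own number. With 3 samples per group, this cannot exclude pairing. With the replicate block 0 probe sets, 0 members and 0 other guidance genes were called with limma, PLXNA2 having an adjusted p of 0.119 at the same difference of 1.04; at an unadjusted p below 0.05 these counts were 6251, 12 and 9. Without dim probe sets the medians were -0.37 for the 3 EPHA receptors left, 0.14 for the 4 netrin receptors left and -0.34 for NTNG1 alone of the netrin G proteins, because fewer genes entered. With 1 array fewer the median of the EPHA receptors ran from -0.13 to -0.075, that of the EFNB ligands from -0.10 to 0.15 and that of the netrin receptors from -0.04 to 0.05. The signs of EPHA2 and NTN4 turned, each with limma adjusted p values near 1: EPHA2 ran from -0.0077 (without untreated replicate 1) to 0.15 and NTN4 from -0.0037 (without untreated replicate 2) to 0.051, with -0.0013 without doxycycline-treated replicate 1. With 1 array fewer the differences of 12 named members, uncalled and at most 0.37 in size, moved by over 1.5 times. All members had 1 probe set, so another choice among probe sets could not be made. No depth applies to arrays. For the 16 dim members a change may be hidden, and no background level was set.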
